A study of Mus musculus with 16 samples.

Results

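Cytosolic ribosomal protein genes were followed in the dorsal root ganglia of mice with an inflamed paw. The members were the protein-coding rows of the deposited table whose symbol begins with Rpl or Rps followed by a digit, a or p, without the S6 kinases, which share that start of the name. This gave 86 of the 36722 genes, 52 named for the large and 34 for the small subunit. Of these, 81 were expressed above the level used for testing, 48 and 33, among 13385 genes tested in all. The rule takes in 10 rows that are paralogs or relatives, among them Rps19bp1, which encodes a protein that binds a ribosomal protein and is not one itself.

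The series compares the ganglion transcriptome after a fusion protein of the cytokines IL4 and IL10 with that after the unlinked pair. All mice were of strain C57BL/6 and had received 20 µl of 2% carrageenan, an irritant used to cause persistent inflammatory pain, into a paw. After 6 days they received an intrathecal injection of 1 µg IL4-10 FP (fusion protein, 6 libraries), of unlinked IL4 and IL10 at 0.5 µg each (combination, 5 libraries), or of PBS (vehicle, 5 libraries), and the lumbar ganglia L3 to L5 were taken 6 hours later. All mice had carrageenan, so no group shows the ganglia without inflammation. Genotypes beyond the strain, and the age of the mice, are not given in the sources used here. The labels do not say that each library came from a different mouse, so p-values measure the spread between these libraries.

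RNA was selected for polyA tails. The deposited values are on a log2 scale and decode to whole numbers, which the text calls scaled values. These carry an unstated scaling, so read depth is unknown, and they are not corrected for gene length. Scaled values summed to 17.8 ± 0.756 M per fusion protein library (SD), 19.6 ± 0.973 M per combination library and 17.8 ± 0.612 M per vehicle library. Marker genes of sensory neurons, satellite glia and Schwann cells were all above the level used for testing. Of 10 markers of T and NK cells 9 lay below it, as did 5 of 6 markers of spinal cord oligodendrocytes.

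Each ribosome is built from a small subunit, which reads the mRNA, and a large subunit, which joins the amino acids. Their proteins are made in near-equal amounts, and the mRNAs of most of them begin with a run of pyrimidines (the TOP motif), through which the mTORC1 kinase controls their translation. Translation in the cell bodies and axons of sensory neurons is known to take part in inflammatory pain, and growing or activated immune cells also make many ribosomes.

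With the fusion protein, ribosomal protein mRNAs were higher almost as a whole on the deposited scale: 69 of the 81 tested members were higher than with vehicle and 0 were lower, at an adjusted p under 0.05 (limma). Of all tested genes 12.0% were higher and 13.7% were lower in this comparison. The log2 differences of the members ran from 0.07 to 0.61 with a median of 0.39, against a median of -0.02 over all tested genes, and all 81 were above 0. The count depended on trends with base composition and length: it was 46 (median 0.26) when each library's trends with GC content and exonic length were removed, 37 (0.24) with the level trend removed as well, and 26 (0.17) when the trends with coding GC and transcript length were removed. Both subunits contributed, and a difference between them was not tested. Without the paralogs and relatives, 37 of 45 large subunit genes (median 0.39) and 27 of 31 small subunit genes (median 0.42) were higher. In whole ganglia, more cells of a type and more RNA per cell cannot be told apart.

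The rise was present in each fusion protein library. Relative to the vehicle mean, the median log2 value over the 81 tested members was 0.31 at the lowest, 0.43 at the median of the libraries and 0.47 at the highest with the fusion protein. It was 0.40, 0.15, 0.31, 0.22 and 0.14 in the combination libraries, and 0.09, -0.02, -0.03, -0.11 and 0.05 in the vehicle libraries. The fusion protein libraries therefore lay above every vehicle library, as did the combination libraries, and combination replicates 1 and 3 reached into the range of the fusion protein libraries. The members took up 0.831 to 1.07% of the summed scaled values with the fusion protein, 0.696 to 0.968% with the combination and 0.610 to 0.825% with vehicle. Sample numbers in the labels fall into an early run, 1 to 8, and a late run, 12 to 19. All 5 combination libraries carry late numbers, as do 2 of the fusion protein and 1 of the vehicle libraries. Among the early numbers alone, 4 fusion protein against 4 vehicle libraries, 54 members were higher and the median difference was 0.38.

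**Figure D1:**
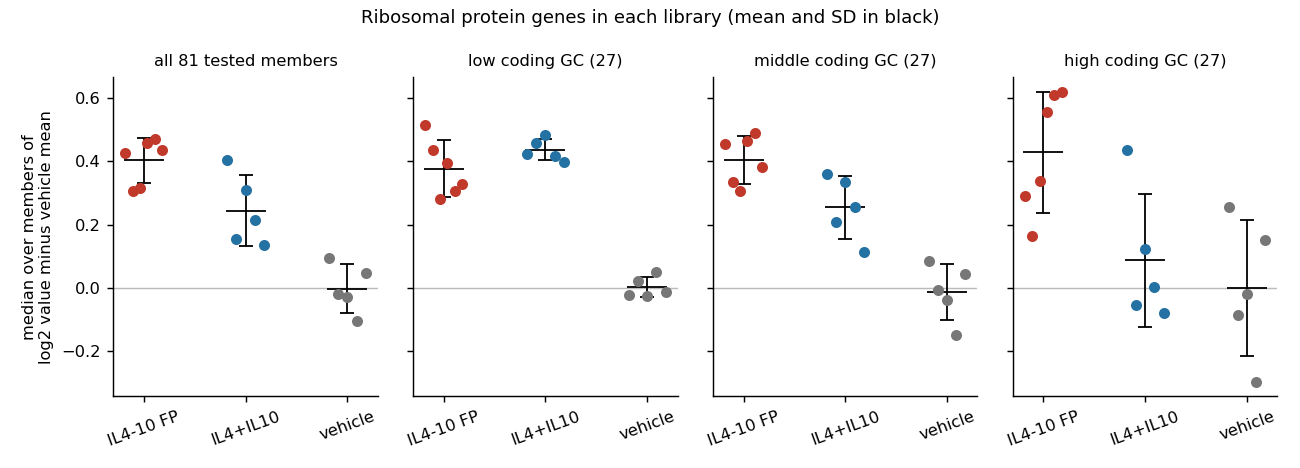
Median over ribosomal protein genes of the log2 value minus the vehicle mean, 1 point per library, for the 81 tested members and for 3 groups of 27 by GC content of the coding sequence, with the mean and SD of each group in black. For low coding GC both treated groups lie above all vehicle libraries; for high coding GC the combination libraries spread between -0.08 and 0.44 and overlap the vehicle libraries.

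The largest differences between fusion protein and vehicle were those of Rps14, Rpl36a, Rpsa, Rps25, Rps3a1 and Rpl19, between 0.52 and 0.61. Rpsa, a small subunit protein also known as a laminin receptor, had a scaled value of 2911 at the lowest, 3342.5 at the median and 3829 at the highest of the fusion protein libraries, against 2664, 2089, 2110, 1822 and 2473 in the vehicle libraries. No fusion protein library overlapped a vehicle library, and the difference was 0.56 ± 0.10 (SE), adjusted p = 5.4e-04, and the ratio of the mean scaled values was 1.49. Rps25, a small subunit protein used by some mRNAs that are translated from internal sites, had 1601 at the lowest, 1711.5 at the median and 1969 at the highest of the fusion protein libraries, against 1088, 1180, 1127, 1212 and 1160 in the vehicle libraries, also without overlap (0.55 ± 0.08 (SE), adjusted p = 1.6e-04). Rps3, at the entry channel for mRNA, had 4090 at the lowest, 4682 at the median and 4881 at the highest of the fusion protein libraries, against 3322, 3140, 3180, 3093 and 3247 in the vehicle libraries. Its lowest fusion protein library stood above its highest vehicle library, with a difference of 0.51 ± 0.06 (SE), adjusted p = 3.8e-05, and the ratio of the mean scaled values was 1.44. Across the members, 47 of 81 had all fusion protein libraries above all vehicle libraries, which held for 7.76% of all tested genes. In 0 members did all lie below, as in 6.57% of all tested genes.

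All 12 members that missed the threshold also had a positive difference. Their differences ran from 0.07 for Rplp2 to 0.52 for Rpl41. The smallest were those of Rplp2, Rps15a (0.13), Rpl27a (0.20) and Rps28 (0.26). Rps15a, a protein of the small subunit, had 1720 at the lowest, 2032.5 at the median and 2503 at the highest of the fusion protein libraries, against 1661, 2018, 1834, 1948 and 1710 in the vehicle libraries. The groups overlapped in Rps15a, and its difference was small with an error like that of most members (0.13 ± 0.08 (SE), adjusted p = 0.25). Rpl41, one of the shortest proteins of the cell, had instead a large difference with a wide error (0.52 ± 0.21 (SE), adjusted p = 0.079), with 1564 at the lowest, 2085 at the median and 3114 at the highest of the fusion protein libraries, against 1911, 1289, 1456, 1080 and 1707 in the vehicle libraries.

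With the combination, the members divided. Of the 81, 38 were higher than with vehicle and 1, Rplp2, was lower, where 24.2% of all tested genes were higher and 12.3% lower. The median difference was 0.23, against 0.06 over all tested genes, and the differences ran from -0.84 to 0.84, a wider span than with the fusion protein. Of the 45 large subunit genes 21 were higher and 1 was lower, and of the 31 small subunit genes 14 were higher. In 37 members all combination libraries lay above all vehicle libraries, which held for 15.1% of all tested genes, and in 0 members below, which held for 7.91%. Of the 81, 37 were higher with both treatments, 32 passed the threshold with the fusion protein and not with the combination, and 1, Rps15a, passed it with the combination alone. Both comparisons share the vehicle libraries. The late run holds 1 vehicle library, too few for a value within that run. With the late run as a covariate 37 members were higher and 2 lower, with a median of 0.26.

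The members that rose most with the combination were Rpl36a, Rpl35a, Rpl38, Rpl22l1, Rps24 and Rps27. Rpl36a, a large subunit protein near the site where tRNA leaves, had 1695, 1119, 1189, 1222 and 1441 in the combination libraries, against 677, 650, 690, 712 and 703 in the vehicle libraries. Every combination library exceeded every vehicle library, and the difference was 0.84 ± 0.10 (SE), adjusted p = 1.2e-05, and the ratio of the mean scaled values was 1.94. In the fusion protein libraries Rpl36a had 919 at the lowest, 1020.5 at the median and 1391 at the highest. Rpl35a had 1209, 1149, 1204, 1187 and 1306 in the combination libraries, against 785, 752, 739, 805 and 670 in the vehicle libraries, again without overlap (0.61 ± 0.06 (SE), adjusted p = 4.5e-06). Rpl4, a large subunit protein of the peptide exit tunnel with the highest level per kb of the principal transcript among the members (6300 scaled units per kb), had 11825, 10513, 11323, 10592 and 11998 in the combination libraries, against 7792, 7483, 7548, 7893 and 7574 in the vehicle libraries. Its fusion protein libraries, from 9326 to 10865, also stayed above all vehicle libraries.

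Among the members at the other end were Rplp2, Rpl36, Rplp1, Rpl27a and Rps29, all below 0 with the combination. Rplp2 fell (-0.84 ± 0.29 (SE), adjusted p = 0.034), and this call ended without any single library among vehicle replicates 1, 3 and 5 and combination replicates 2, 4 and 5. Rpl36 (-0.66, adjusted p = 0.17) and Rplp1 (-0.59, adjusted p = 0.29) did not pass. Rpl36, a short large subunit protein, had 334 at the lowest, 690.5 at the median and 1105 at the highest of the fusion protein libraries, 387, 184, 287, 249 and 135 in the combination libraries, and 868, 334, 384, 176 and 691 in the vehicle libraries. Its vehicle libraries overlapped both treated groups. Vehicle replicate 1 was the highest and vehicle replicate 4 the lowest vehicle library for Rpl36, as they were for Rplp1 and Rplp2.

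**Figure D2:**
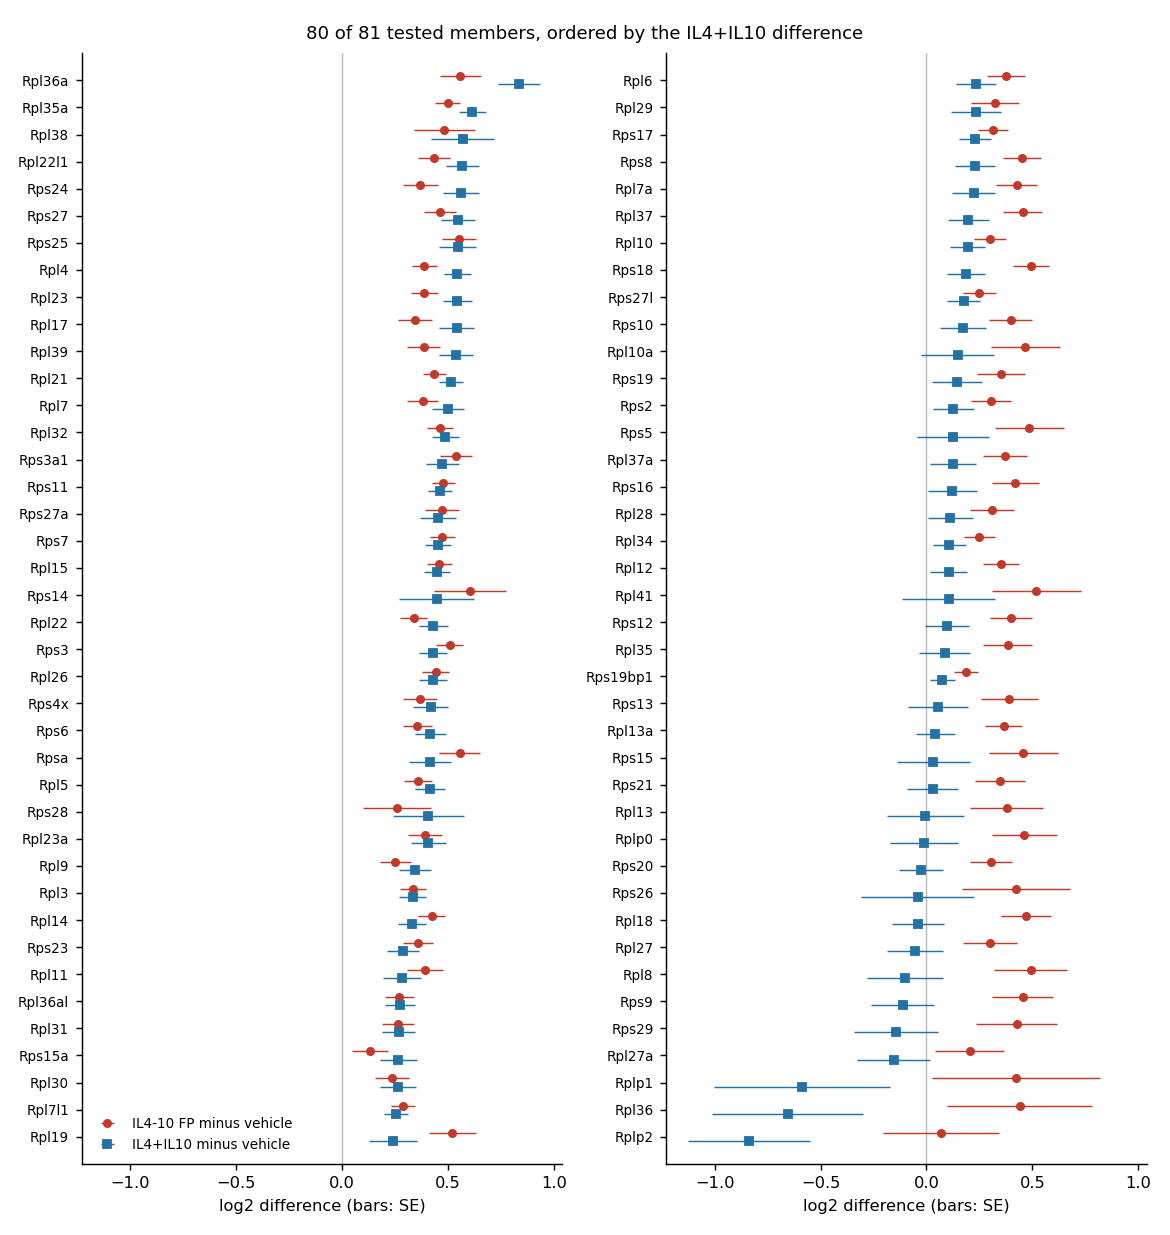
Log2 difference from vehicle of 80 of the 81 tested members, with its SE, for the fusion protein (red circles) and the combination (blue squares), ordered by the combination difference from top left to bottom right. The fusion protein differences stay between 0.07 and 0.61, while those of the combination run from 0.84 (Rpl36a) to -0.84 (Rplp2).

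Set directly against the combination, the fusion protein gave higher values for 16 members and a lower value for 1, Rpl36a (-0.28 ± 0.10 (SE), adjusted p = 0.039). Of all tested genes 7.35% were higher and 22.2% lower. The median over the members was 0.11, against -0.09 over all tested genes. The largest differences included those of Rpl36 (1.10 ± 0.34 (SE), adjusted p = 0.03), Rplp1 (1.01, adjusted p = 0.068, not past the threshold), Rplp2 (0.91 ± 0.28 (SE), adjusted p = 0.026), Rpl8 and Rps29. In 3 members, Rps20, Rps9 and Rpl13a, all fusion protein libraries lay above all combination libraries, which held for 3.09% of all tested genes, and in 0 members below (6.44% of all tested genes). Rps9, a small subunit protein that helps set decoding accuracy, had 2388 at the lowest, 2990.5 at the median and 3669 at the highest of the fusion protein libraries, against 2169, 1826, 2269, 2087 and 1498 in the combination libraries (0.57 ± 0.14 (SE), adjusted p = 0.012). In the vehicle libraries Rps9 had 2773, 1966, 2064, 1433 and 2626, which overlapped both treated groups.

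This direct comparison rested on single libraries. The count of higher members was 3 without combination replicate 5, 5 without combination replicate 2, 8 without combination replicate 4 and 32 without combination replicate 1. Leaving out a fusion protein library gave 5 without replicate 4, 6 without replicate 5, 10 without replicate 6 and 25 without replicate 2. Among the late label numbers alone, 2 fusion protein against 5 combination libraries, 22 members were higher and 2 lower, with a median of 0.13.

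The combination differences followed the base composition of the coding sequence: GC-poor members were higher and GC-rich members mostly were not. Ranked by coding GC content, the members were divided into GC-poor, middle and GC-rich groups of 27 genes, from 39.9 to 50.4%, from 50.6 to 54.6% and from 54.6 to 61.6%. With the combination 25 of the GC-poor, 12 of the middle and 1 of the GC-rich members were higher than with vehicle, with median differences of 0.45, 0.23 and 0.07, and Rplp2, which is GC-rich, was lower. With the fusion protein 26, 24 and 19 were higher, with medians of 0.37, 0.39 and 0.43. Directly between the treatments, 1, 4 and 11 were higher with the fusion protein, with medians of -0.08, 0.14 and 0.31, and Rpl36a, which is GC-poor, was lower.

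The first 90 coding bases of the 3 members with the largest and the 3 with the smallest combination difference show the contrast. They were read from the GENCODE annotation of GRCm38, with G and C in capitals. The first 3, Rpl36a (chrX:134585654-134588062, plus strand), Rpl35a (chr16:33056453-33060189, plus strand) and Rpl38 (chr11:114668524-114672331, plus strand), have coding GC contents of 48.7%, 48.8% and 49.5%. The other 3, Rplp2 (chr7:141447370-141451585, plus strand), Rpl36 (chr17:56613416-56614243, plus strand) and Rplp1 (chr9:61913284-61914542, minus strand), have 56.8%, 61.6% and 58.2%.
Rpl36a: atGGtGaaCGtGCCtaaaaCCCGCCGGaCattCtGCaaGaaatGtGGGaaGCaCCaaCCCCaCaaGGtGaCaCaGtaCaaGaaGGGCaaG
Rpl35a: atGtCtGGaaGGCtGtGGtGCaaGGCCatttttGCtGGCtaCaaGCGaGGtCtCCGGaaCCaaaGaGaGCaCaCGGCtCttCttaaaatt
Rpl38: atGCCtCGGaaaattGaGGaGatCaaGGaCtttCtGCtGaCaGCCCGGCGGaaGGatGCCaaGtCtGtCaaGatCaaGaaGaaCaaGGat
Rplp2: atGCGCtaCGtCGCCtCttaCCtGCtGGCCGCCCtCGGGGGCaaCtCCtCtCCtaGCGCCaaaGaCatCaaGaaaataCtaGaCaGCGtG
Rpl36: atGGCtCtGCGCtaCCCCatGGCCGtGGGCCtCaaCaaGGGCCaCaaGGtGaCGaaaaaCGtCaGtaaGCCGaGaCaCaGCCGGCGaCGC
Rplp1: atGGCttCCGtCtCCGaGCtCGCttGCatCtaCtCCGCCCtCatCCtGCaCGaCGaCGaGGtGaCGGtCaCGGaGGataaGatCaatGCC
Of these 90 bases, 47, 45 and 44 are G or C in Rpl36a, Rpl35a and Rpl38, and 52, 56 and 53 in Rplp2, Rpl36 and Rplp1. These 6 genes were taken for their differences, so their composition illustrates the ranking of all 81 and adds nothing to it.

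Across the 81 members, the correlation of the difference with coding GC content was 0.09 for fusion protein against vehicle (Spearman 0.12), -0.66 for combination against vehicle (-0.70) and 0.73 for fusion protein against combination (0.76). The points share the same libraries. The leaning was not particular to ribosomal proteins: over the 13003 tested genes with a coding sequence the correlations were -0.21, -0.58 and 0.38. Set against the median of all tested genes in the same bin of 2.5 percentage points of coding GC, 81 of 81 members lay above it with the fusion protein against vehicle (median excess 0.40), 68 of 81 with the combination against vehicle (0.18) and 77 of 81 between the treatments (0.19). The 22 members above 55% GC include the 3 that lay lowest with the combination, and 17 of these 22 were above the line. The bins take no account of length, and medians with coding GC and length trends both removed are given below. GC at the third codon position, which depends least on the protein sequence, gave -0.44 for combination against vehicle across the members.

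**Figure D3:**
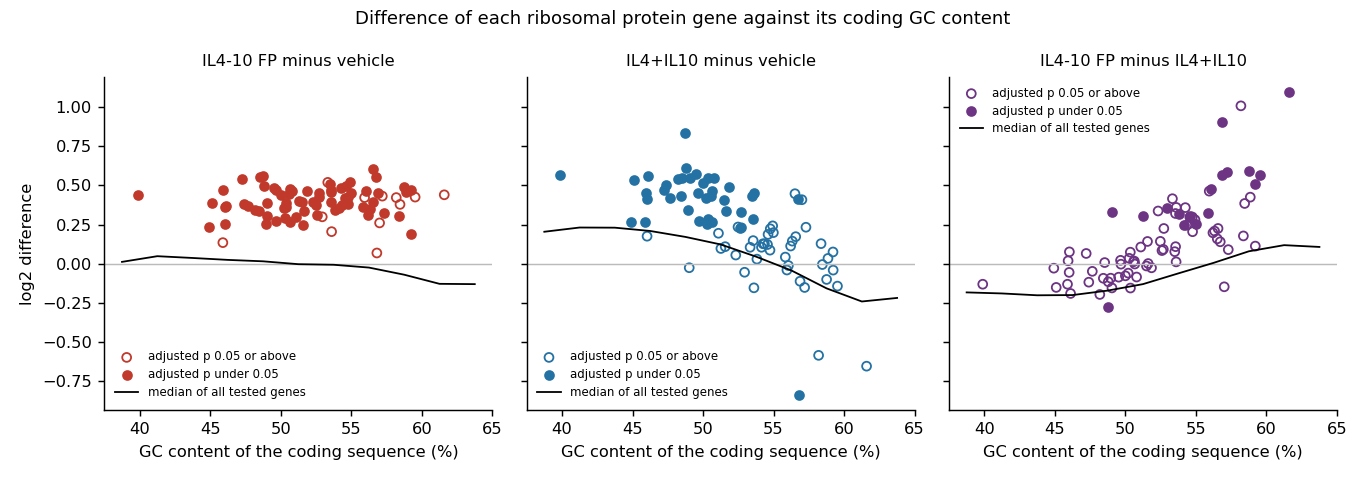
Log2 difference of each tested member against the GC content of its coding sequence, in 3 panels by comparison, filled where the adjusted p was under 0.05; the black line is the median of all tested genes in bins of 2.5 percentage points. Points of the middle panel descend from left to right, as the line of all genes does, and 68 of the 81 members lie above the median of their bin. Most points of the left panel sit near 0.4 at every GC content.

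The same leaning was seen library by library. The slope of the members' values on coding GC, in log2 units per 10 percentage points and relative to the vehicle mean, was -0.35 at the lowest, 0.09 at the median and 0.30 at the highest of the fusion protein libraries. It was -0.05, -0.66, -0.39, -0.48 and -0.62 in the combination libraries, and 0.37, -0.15, -0.01, -0.43 and 0.22 in the vehicle libraries. The slope of all genes ran from -0.19 to 0.02 with the fusion protein, from -0.33 to -0.15 with the combination and from -0.11 to 0.15 with vehicle. The leaning also differed within groups, with fusion protein replicates 1 and 2 below 0 like the combination libraries and vehicle replicates 1 and 4 at opposite ends. What makes a library lean was not tested.

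When each library's trend with coding GC and transcript length was removed, the median difference of the members was 0.17 with the fusion protein and 0.14 with the combination against vehicle, and 0.03 between the treatments, with 26, 27 and 7 members higher. When the trends with the authors' GC column and exonic length were removed instead, the medians were 0.26, 0.26 and 0.01, with 46, 47 and 8 members higher. After the first removal the median of the members per library was 0.11 to 0.22 with the fusion protein, 0.05 to 0.18 with the combination and -0.02 to 0.01 with vehicle, so both treated groups stayed above every vehicle library. The size of the rise with the fusion protein, and its excess over the combination, therefore depended on this step. In both removals each treatment kept a median above 0. Relative to the mean of all libraries, the slope of the tested genes on log2 exonic length, per SD, ran from -0.10 to 0.004 with the fusion protein. It ran from -0.04 to 0.05 with the combination and from -0.03 to 0.10 with vehicle. The members are short, and the parts of GC and of length in this step were not tested apart. Quantile normalization gave medians of 0.41, 0.16 and 0.24. It raised the median with the fusion protein and that between the treatments, and lowered that with the combination.

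**Figure D4:**
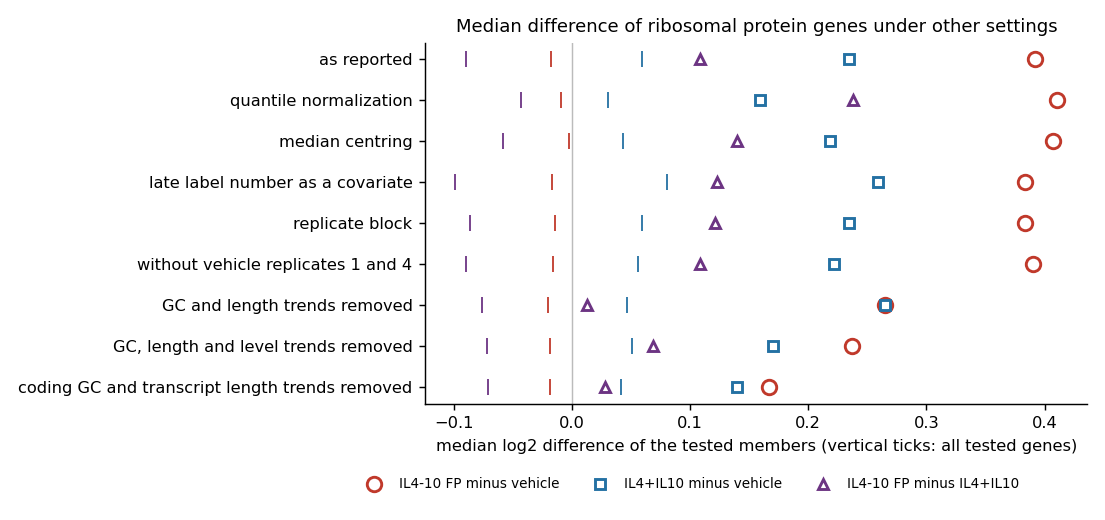
Median log2 difference of the tested members under the reported fit and 8 other settings, for the fusion protein minus vehicle (circles), the combination minus vehicle (squares) and the fusion protein minus the combination (triangles), with the median of all tested genes as vertical ticks of the same colour. After removal of GC and length trends the circle and the square coincide at 0.26 and the triangle lies at 0.01.

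All 3 members of the stalk had differences below 0 from vehicle with the combination, and 1 of them, Rplp2, passed the test. All 3 belong to the GC-rich group, in which 16 of 27 members were above 0 with the combination. Of all 13385 tested genes 7956 were above 0 in this comparison. The stalk is a flexible arm of the large subunit, made of Rplp0 with copies of Rplp1 and Rplp2, that recruits elongation factors. Rplp0 had 3275 at the lowest, 4465 at the median and 4971 at the highest of the fusion protein libraries, 4098, 2609, 3184, 3025 and 2506 in the combination libraries, and 4027, 2820, 2959, 2169 and 3695 in the vehicle libraries. The combination and vehicle libraries covered nearly the same range, and the median fusion protein library stood above all libraries of both. The differences of Rplp0 were 0.46 ± 0.15 (SE), adjusted p = 0.034, for the fusion protein against vehicle, -0.01 (adjusted p = 0.96) for the combination against vehicle, and 0.47 ± 0.15 (SE), adjusted p = 0.029, between the treatments. Rplp2 had 480 at the lowest, 853.5 at the median and 1361 at the highest of the fusion protein libraries, 491, 342, 484, 395 and 303 in the combination libraries, and 1508, 687, 749, 393 and 1016 in the vehicle libraries. All its combination libraries were at or below 491, and its vehicle libraries ran from 393 to 1508. Rplp1 ran from 1667 to 5551 with the fusion protein, from 1071 to 3290 with the combination and from 1200 to 4749 with vehicle, so neither difference from vehicle passed.

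Free ribosomal proteins that bind Mdm2, the ubiquitin ligase of p53, link ribosome assembly to p53. All 6 members of that list, Rpl5, Rpl11, Rpl23, Rps3, Rps7 and Rps27l, were higher with the fusion protein and 5 with the combination, without Rps27l. Of all 81 tested members 69 and 38 were higher. The call of Rps27l with the fusion protein ended, and its sign turned, under all 4 removals of GC and length trends (-0.15 to -0.03). Rpl5, which enters the large subunit with Rpl11 and the 5S rRNA, had 2112 at the lowest, 2209 at the median and 2485 at the highest of the fusion protein libraries, 2360, 2543, 2520, 2344 and 2001 in the combination libraries, and 1670, 1786, 1662, 1813 and 1712 in the vehicle libraries. Both treated groups were clear of the vehicle libraries, and the differences from vehicle were 0.36 (adjusted p = 7.8e-04) and 0.42 (adjusted p = 1.7e-04). Rpl11 had a difference of 0.39 with the fusion protein (adjusted p = 0.0028) and of 0.28 with the combination (adjusted p = 0.018). Of 12 tested p53 target genes, 1 was higher and 1 lower with the fusion protein, and 4 were higher with the combination, beside 12.0% and 13.7% of all tested genes with the fusion protein and 24.2% higher with the combination, so nothing is read from a list of this size.

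Of the members known for regulatory sites or for roles in selected mRNAs, 8 of 8 were higher with the fusion protein and 4 of 8 with the combination. Of all tested members 69 and 38 of 81 were higher, so the counts are not particular to this list. Rps6, the classical substrate of the S6 kinases downstream of mTORC1, had 2452 at the lowest, 2763.5 at the median and 3066 at the highest of the fusion protein libraries, 3224, 2683, 2829, 2541 and 3047 in the combination libraries, and 2137, 2142, 2021, 2096 and 2137 in the vehicle libraries. Treated and vehicle libraries of Rps6 did not overlap, with differences of 0.36 (adjusted p = 0.0014) and 0.42 (adjusted p = 2.9e-04). Rpl38, needed in mouse embryos for translation of a set of Hox mRNAs, had 489 at the lowest, 536 at the median and 830 at the highest of the fusion protein libraries, 970, 471, 528, 468 and 748 in the combination libraries, and 429, 351, 357, 371 and 376 in the vehicle libraries. Combination replicates 1 and 5 and fusion protein replicate 6 stood well above the rest of their groups. Rpl13a, whose human counterpart silences inflammatory mRNAs in monocytes once released from the ribosome, had 4146 at the lowest, 4591.5 at the median and 5169 at the highest of the fusion protein libraries, 3922, 3501, 4122, 4038 and 3068 in the combination libraries, and 4226, 3518, 3507, 3070 and 3771 in the vehicle libraries. Its fusion protein libraries lay above all combination libraries (0.32 ± 0.09 (SE), adjusted p = 0.014), and overlapped 1 vehicle library (0.36, adjusted p = 0.0054). Rps19, mutated in some human patients with Diamond-Blackfan anaemia, differed by 0.35 (adjusted p = 0.027) and 0.14 (adjusted p = 0.36).

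**Figure D5:**
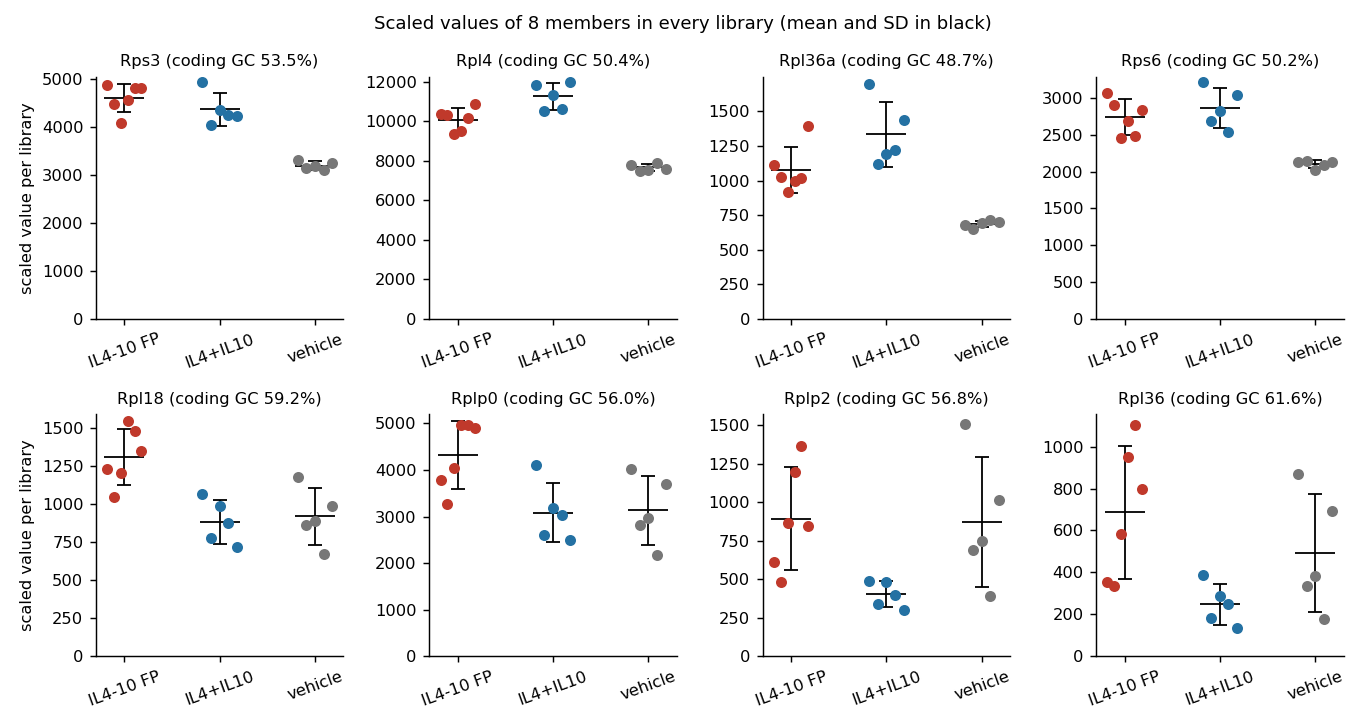
Scaled value in every library for 8 members, with the mean and SD of each group in black; each axis starts at 0. Rps3, Rpl4, Rpl36a and Rps6 show both treated groups above all vehicle libraries, whereas Rplp2 and Rpl36 show vehicle libraries spread over 393 to 1508 and 176 to 868.

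Of the 10 paralogs and relatives 5 were tested, and these were higher with the fusion protein in all 5 cases and with the combination in 3. Of all 81 tested members 69 and 38 were higher. Rpl22l1, the paralog that can replace Rpl22 in the large subunit, had 283 at the lowest, 335 at the median and 373 at the highest of the fusion protein libraries, 302, 427, 363, 401 and 368 in the combination libraries, and 192, 221, 203, 251 and 211 in the vehicle libraries. Both treated groups were above all vehicle libraries, and Rpl22 itself differed by 0.34 and 0.43 beside 0.44 and 0.57 for Rpl22l1. Rps27l, a p53-regulated paralog of Rps27, differed by 0.25 (adjusted p = 0.021) with the fusion protein, and its difference was -0.15 once the trends with coding GC and transcript length were removed. Rps19bp1 differed by 0.19 and 0.07, among the smaller values of all members. It was also the tested member nearest to the level used for testing, with a mean log2 value of 8.12 against a limit of 6.99, followed by Rpl36al (8.59) and Rpl22l1 (8.71).

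The 5 members below that limit were Rpl10l, Rpl6l, Rpl39l, Rpl3l and Rps27rt, with mean log2 values of 6.18, 6.19, 6.25, 6.39 and 6.51. Rpl3l, known from heart and skeletal muscle, ran from 2 to 9 with the fusion protein, from 1 to 15 with the combination and from 2 to 10 with vehicle. Rps27rt, a retrotransposed copy of Rps27, had 1, 2.5 and 34 at the lowest, median and highest of the fusion protein libraries, 99, 3, 6, 5 and 64 in the combination libraries, and 3, 2, 2, 3 and 4 in the vehicle libraries. The 3 high libraries, combination replicates 1 and 5 and fusion protein replicate 6, were those that stood apart for Rpl38. The same 3 libraries also held the highest values of their groups for Rps28. This was also so for Rpl36a and Rps14, which had the largest difference from vehicle with the combination and with the fusion protein. For Rps28, fusion protein replicate 6 had 463 where the others had at most 344. Combination replicates 1 and 5 had 711 and 529 for Rps28, where the others had at most 305. The cause was not tested.

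Ribosomal proteins are also encoded under other names. Fau, which encodes the small subunit protein eS30 fused to a ubiquitin-like domain, differed by 0.59 ± 0.17 (SE), adjusted p = 0.018, with the fusion protein and by 0.14 (adjusted p = 0.56) with the combination. Rack1, a signalling scaffold on the small subunit, differed by 0.30 ± 0.09 (SE), adjusted p = 0.025, and by -0.01, and the difference between the treatments passed for Rack1 (0.31 ± 0.09 (SE), adjusted p = 0.022).

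Other parts of the translation machinery were counted in the same fit. The list of mRNAs with a known TOP motif outside the members includes Fau, given above. Of its 24 tested mRNAs, 14 were higher and 0 lower with the fusion protein (median 0.27), and 12 were higher and 0 lower with the combination (median 0.22). Among them Eef1b2, a subunit of elongation factor 1, differed by 0.47 and 0.48, and Npm1, a nucleolar chaperone, by 0.48 and 0.42, all past the threshold. Eef2, Pabpc1 and Naca, also TOP mRNAs, did not pass in either comparison with vehicle, at 0.17, -0.20 and -0.08 with the fusion protein and -0.24, -0.06 and -0.06 with the combination. Of 30 initiation factors 11 were higher and 1 lower with the fusion protein (median 0.20), and 16 higher and 1 lower with the combination (median 0.24). Eif3c, a scaffold subunit of eIF3, differed by 0.45 and 0.51, and Eif4g3, a scaffold of the cap complex, was the factor that fell in both, by 0.42 and 0.34 on the log2 scale.

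Of 40 ribosome assembly genes 20 were higher and 0 lower with the fusion protein (median 0.22), and 17 higher and 1 lower with the combination (median 0.16). Wdr75, part of the early small subunit precursor, rose by 0.37 and 0.59, and Tcof1, a nucleolar factor of rRNA synthesis, was the gene that fell with the combination (-0.52 ± 0.07 (SE), adjusted p = 2.0e-05). Among RNA polymerase I subunits and factors 4 of 14 were higher in each comparison with vehicle and 1 was lower with the combination. Of 21 genes of the mTORC1 pathway, 3 were higher and 4 lower with the fusion protein and 5 higher and 4 lower with the combination. Of 10 ribosome quality control genes, 2 were higher and 1 lower with the fusion protein, and 4 were higher and 1 lower with the combination. Of all tested genes 12.0% were higher and 13.7% lower with the fusion protein, and 24.2% higher and 12.3% lower with the combination. The mTORC1 genes were near these shares, and the polymerase I and quality control lists are too short for a reading.

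The tested members share features that the rule on names did not use. Like all tested genes, they had passed the level used for testing. On a scale not corrected for length they were abundant, with a median log2 value of 10.9, above 82.2% of all tested genes, and short, with a median exonic length of 1781 bases against 4616 for all tested genes. Their sequence is repeated in the genome by processed pseudogenes: a median of 49.4% of the 50-base stretches of a member's principal transcript also occurred in transcripts of other genes (range 0 to 98.6%). How reads with several matches were counted is not given in the sources used here, so the level of a member with much shared sequence is uncertain. Of the 8 members with at most 10% shared, 7 were higher with the fusion protein and 4 with the combination, beside 35 and 21 of the 40 members with over 50% shared. Rps3, with little shared sequence, and Rpl5, with most of it shared, gave differences of 0.51 and 0.36. Of the 236 rows named as ribosomal protein pseudogenes, 4 were above the level used for testing, of which 1 was higher with the fusion protein and 3 with the combination.

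Within groups, members varied together only in part. The correlation of their deviations from the group means over the 16 libraries had a median of 0.23 over 3240 pairs, and 63.7% of pairs were positive. Rpl12 and Rps18 followed the other members most closely, with mean correlations of 0.42 and 0.40. Rpl39 and Rpl22l1, both with a low coding GC content, ran against them, at -0.20 and -0.18.

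Promoters were matched for 61 of the 81 tested members by symbol, with sequence from RefSeq on GRCm38.p6. A run of at least 8 pyrimidines (C or T) within 20 bases of an annotated start was found in 30 of them, 49.2%, against 19.6% of the 10221 tested genes with a promoter. A gene counted here if any of its promoters had the run. Counted promoter by promoter, which is another measure, 16.0% of all 32851 promoters had it. The motif CCGGAAG, searched on both strands of 300 bases, was in 41.0% of the members and 18.8% of the tested genes, and GGGCGG was in 65.6% and 68.7%. Windows of 40 bases around the start of 3 named members are given on the strand of the gene, with the longest pyrimidine run in capitals. Rpl38 (chr11:114668560-114668599) and Rplp2 (chr7:141447631-141447670) each have a run of 10, and Rpl36a (chrX:134585634-134585673) one of 5.
Rpl36a: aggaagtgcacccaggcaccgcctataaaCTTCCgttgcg
Rpl38: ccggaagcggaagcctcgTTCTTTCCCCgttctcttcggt
Rplp2: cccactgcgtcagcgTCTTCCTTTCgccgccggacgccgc
Rpl38 and Rplp2, which share this feature, had combination differences of 0.57 and -0.84, and Rpl36a, with the short run, had 0.84. Rpl35a (0.61), whose windows are not printed, has runs of 4, 13 and 5 at its annotated starts. These genes were taken for their differences, and a relation of run length to the differences was not tested.

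Macrophage markers were also higher with the fusion protein. Of 13, 8 were higher and 0 lower than with vehicle (median 0.44), and 1 was higher with the combination (median 0.05); between the treatments 6 were higher with the fusion protein. Their summed scaled values ran from 3848 to 8354 with the fusion protein, from 2854 to 4070 with the combination and from 2147 to 4110 with vehicle. Fcer1g, the signalling chain of Fc receptors, differed by 1.34 ± 0.21 (SE), adjusted p = 4.6e-04, and Cd68, a lysosomal protein of phagocytes, by 0.75 ± 0.16 (SE), adjusted p = 0.0034. C1qa and Cx3cr1, markers of resident macrophages, did not pass, at 0.11 and 0.05. With the combination the summed markers lay within the range of the vehicle libraries, and the GC-poor and middle members had medians above every vehicle library. The medians of the GC-rich members ran from -0.08 to 0.44 with the combination and from -0.30 to 0.25 with vehicle, so these overlapped. Of 13 neuron markers 0 were higher and 1 was lower with the fusion protein, and of 8 satellite glia markers 0 and 1. With the combination 3 neuron markers were higher and 1 lower, and 4 satellite glia markers were higher and 0 lower. Between the treatments 4 neuron and 4 satellite glia markers were lower with the fusion protein and 0 higher. Of all tested genes 12.0% were higher and 13.7% lower with the fusion protein, and 24.2% and 12.3% with the combination. Between the treatments these shares were 7.35% and 22.2%. Of 9 tested neutrophil markers, 2 were higher and 1 lower with the fusion protein (median 0.22), and 0 were higher and 1 lower with the combination (median 0.06). The higher ones were Csf3r (1.20 ± 0.33 (SE), adjusted p = 0.018), the receptor of a granulocyte growth factor, and Cxcr2 (1.12 ± 0.34 (SE), adjusted p = 0.026), a chemokine receptor. The differences of the 9 with the fusion protein ran from -0.48 to 1.20, and 6 were above 0. The summed neutrophil markers ran from 2512 to 10222 with the fusion protein, from 3129 to 4854 with the combination and from 1876 to 4891 with vehicle, so the groups overlapped. The T and NK cell marker that was tested, Lck, a kinase of T cell receptor signalling, was higher with the fusion protein (0.42 ± 0.09 (SE), adjusted p = 0.0019), and the summed 10 markers ran from 132 to 319 with the fusion protein, from 103 to 192 with the combination and from 94 to 132 with vehicle. Of 6 tested B cell markers, 0 were higher and 1 was lower with each treatment against vehicle. Their median differences were -0.14 with the fusion protein and -0.11 with the combination. The summed B cell markers ran from 849 to 1448 with the fusion protein, from 1050 to 1384 with the combination and from 1192 to 1799 with vehicle. The part of macrophages and other immune cells in the rise of the members was not tested.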

How the data were processed

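Per the submitters' processing notes, reads were handled with FastQC, STAR, HTSeq and DESeq2 on build GRCm38. Strand and multiple matches are not given in the sources used here. The values deposited by the authors are log2-scale, variance-stabilised values. With a transform fitted to the 60 lowest distinct values, 100% of the entries decode to whole numbers within 0.01, so libraries had been scaled and rounded in an unstated step; depth is unknown and no counting interval is given. Near the lowest value, 5.99, the transform compresses differences. GC content, in percent, is a column of the authors. The deposited p-value columns name no comparison and were not used.

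Genes with a mean at least 1 above the lowest value were tested. One model of 3 groups over 16 libraries was fitted with limma 3.58.1 in R 4.3.3 (trend and robust, two-sided, Benjamini-Hochberg over 13385 genes, threshold 0.05), and the members were read from it. Differences are log2 differences of group means on the deposited scale, and ratios are of mean scaled values. It was tested on simulated data. Coordinates, lengths and coding sequences came from GENCODE M21 on GRCm38, with Python 3.11.15. The members and lists were chosen with earlier results of these data known. Named by rule are the largest and smallest differences of each comparison, the role lists and the members nearest the level limit. Rpl12, Rps18, Rps9, Rps20, Rpl22, Rpl18 (plotted), Eef2, Pabpc1, Naca and the named immune cell markers were picked after their values were seen. The labels state no pairing by replicate number, and the model used none. Correlations of same-numbered libraries of different groups ran from -0.20 to 0.60, and those of other libraries from -0.86 to 0.80. These ranges do not show whether the numbers pair libraries. Results for 2 genes are not reported here. Alternatives are given in the closing section.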

Additional observations from a re-analysis of the deposited data

Results flagged for a closer look

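A library far from the others of its group was found in 9 of 138 sets of values, which were those of 44 named members, of the median over the members and of their slope on coding GC, in each of 3 groups; the limit used flags about 1 in 20 by chance. With the fusion protein, replicate 6 was the highest for Rpl38 (scaled value 830) and Rps28 (463), and replicate 3 the lowest for Rps3a1 (1922). With the combination, replicate 1 was the highest for Rpl41 (2816), Rplp1 (3290) and Rps26 (2697), and replicate 5 for Rpl39 (534). With vehicle, replicate 1 was the highest for Rpl27a (1411) and the lowest for Rps27 (877).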

How the results depend on the processing

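The count of members higher with the fusion protein than with vehicle was 69 as reported, 37 with trends on GC, length and level removed and 26 with trends on coding GC and transcript length removed, a setting chosen after seeing the data. Its median difference, 0.39, was 0.265 with GC and length trends removed, 0.237 with level added, 0.270 with the late label number added to the GC and length trends and 0.167 with coding GC and transcript length trends removed. The mean over libraries of the member median moved likewise, to 0.281, 0.246 and 0.169 with the fusion protein and to 0.132 with the combination under coding GC. Against vehicle, 1 member was lower with the combination as reported, 0 at an adjusted p of 0.01, 2 with the late label number and 3 with the first residual principal component.

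Between the treatments, 16 members were higher as reported, 10 without a level filter, 33 with array weights, 28 with the late label number, 33 with the first residual principal component, 8 with GC and length trends removed, 9 with level added, 7 with coding GC, 27 at an adjusted p of 0.1 and 1 at 0.01. Lower were 1 as reported, 0 without a filter, with quantile normalization, with median centring, with only the 2 groups compared or at 0.01, 2 without trend and robust or within late label numbers, 8 with array weights, 4 with the late label number or coding GC, 6 with the principal component or with GC, length and late label number, and 5 with GC and length trends removed or at 0.1. The median of 0.11 became 0.238 with quantile normalization, 0.0128 with GC and length trends removed, 0.0688 with level added, 0.0279 with coding GC and -0.00203, below 0, with GC, length and late label number.

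With the replicate block, for which the labels state no pairing, 64 members were higher with the fusion protein against vehicle. With the combination 42 were higher and 0 lower than with vehicle, and between the treatments 8 were higher and 2 lower. Leaving out each library in turn gave 52 to 70 higher with the fusion protein (median 0.354 to 0.422), 37 to 41 higher and 0 to 1 lower with the combination (0.197 to 0.256), and 3 to 32 higher and 0 to 3 lower between the treatments (0.0857 to 0.132). Without vehicle replicates 1 and 4, chosen after seeing the data, 52, 34 and 23 were higher. Of the named members, Rps27l against vehicle with the fusion protein turned to -0.0481, -0.0374, -0.0306 and -0.150 under the 4 trend removals, and with coding GC Rpl30 turned to -0.0631 with the fusion protein and -0.0294 with the combination, and Rpl34 to -0.0672. The cause was not tested. Unknown depth limits every level given here.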
